A study of Caenorhabditis elegans with 11 samples.

Results

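The major sperm protein genes, named msp, were examined in young adult C. elegans depleted of SACY-1 in the soma or in the germline. The 10 genes are all rows of the authors' expression table whose gene name begins with msp-, out of 882 listed genes. They were msp-31, msp-33, msp-40 and msp-50 on chromosome II, and msp-19, msp-36, msp-55, msp-57, msp-76 and msp-77 on chromosome IV. The table lists only genes that passed a threshold of change in at least 1 of the study's comparisons, so the 10 genes are a selected share of the family. The Ensembl annotation of the same assembly (WBcel235) holds 31 protein-coding msp genes, and the other 21 are not analysed here.

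Major sperm protein is a small cytoskeletal protein of nematode sperm. It assembles into the filaments that move the crawling sperm cell, taking the place that actin has in other crawling cells. Before the sperm matures, the protein is packed into fibrous bodies inside the spermatocyte. Sperm also release it as a signal that promotes meiotic maturation and ovulation of oocytes and contraction of the gonadal sheath around them. The protein is encoded by many near-identical genes that are transcribed in germ cells that develop into sperm. Hermaphrodites make sperm during larval life and then switch their germline to oocytes, so young adults carry stored sperm. SACY-1, the ortholog of the human helicase DDX41, was found in screens for suppressors of acy-4 sterility. ACY-4 is an adenylate cyclase of the gonadal sheath that is needed for the response to the sperm signal.

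Soma-depleted worms (strain DG4703, 3 samples) carried the sacy-1 allele tn1880 on chromosome I, which encodes SACY-1 with aid (the auxin-inducible degron), gfp and myc tags, together with the transgene ieSi57 on chromosome II. In ieSi57 the eft-3 promoter, active across somatic cells, drives TIR1::mRuby, a plant receptor that in the presence of auxin marks degron-tagged proteins for destruction. Their soma controls (strain CA1200, 2 samples labelled here) carried ieSi57 and unc-119(ed3) on chromosome III, with no tagged SACY-1. Germline-depleted worms (strain DG4700, 3 samples) carried the same tagged sacy-1 allele with ieSi64, in which the gld-1 promoter drives TIR1::mRuby in germ cells. Germline controls (strain CA1352, 3 samples) carried ieSi64 and unc-119(ed3). Both transgenes include Cb unc-119(+). All 4 groups received 2 mM auxin for 24 hours at 20 °C as young adults, and poly(A)+ RNA came from lysates of the worms. The allele unc-119(ed3) is given for the controls only, so strain genotype and depletion cannot be told apart. Each group is 1 strain, and the labels give no sex of the worms.

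The values are the authors' group means in FPKM, read fragments normalised for transcript length and for library size, so no value has a replicate spread and the depth of each sample is unknown. The smallest mean count over all samples among the 882 listed genes was 25.3 and the median was 162. The 10 msp genes lay between 29.2 and 70.7 counts, at the low end of the table. A low count limits the precision of each fold change. In lysates of whole worms, more cells of a type and more RNA per cell cannot be told apart. Soma and germline name here where SACY-1 was depleted, while the RNA came from the whole worm in every group.

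All 10 genes are 384 bases long with 1 exon and no annotated UTR. That length was shared by 28 of the 31 annotated family members, and the shortest was 234 bases. Since the 10 genes have equal annotated length, their FPKM values are set side by side, with a reservation for msp-31 given below. The close similarity of the copies means that reads can be shared or misplaced among them, and the sources used here do not give the counting method. Values of single members are therefore uncertain, and sums over the 10 listed genes are given beside them. These sums do not recover reads placed on the 21 unlisted copies. None of the 3096 splicing events in the authors' second table overlapped any of the 31 annotated genes, which have no intron. Sequences of the members were not used here.

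Every listed msp gene was at its highest in soma-depleted worms. Soma-depleted worms had a sum of 63.7 FPKM over the 10 genes in the authors' deposited table, against 22.9 FPKM in soma controls, a ratio of 2.78. Germline-depleted worms had a sum of 39.9 FPKM in the same table, against 24.7 FPKM in germline controls, a ratio of 1.61. The order was the same in each of the 10 genes, with soma-depleted worms first, germline-depleted worms second and both controls lower. Among all 882 listed genes, 142 (16.1%) had that order and 267 (30.3%) were highest in soma-depleted worms. Nothing is read from this contrast, because 8 of the 10 genes are listed only through their call as higher in soma-depleted worms, which favours that group's first place. Without replicate values it could not be tested whether neighbours in the order differ beyond their spread.

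**Figure D1:**
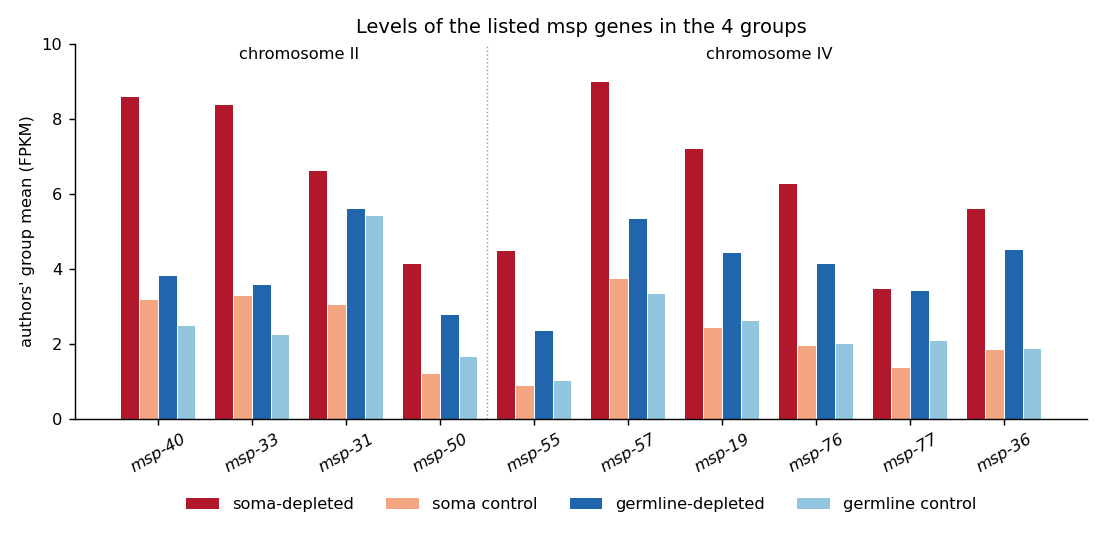
Authors' group mean level in FPKM (vertical axis, from 0) of the 10 listed msp genes, grouped by chromosome and drawn in genome order, with 1 bar per group of worms. The soma-depleted bar is the tallest for every gene, from 3.47 FPKM for msp-77 to 8.99 FPKM for msp-57, and msp-31 is the only gene whose germline-depleted bar barely exceeds its germline control bar.

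The soma comparison asked which transcripts differ when SACY-1 is removed from somatic cells. All 10 genes were higher after soma depletion at an adjusted p under 0.05, against 29.7% of the 882 listed genes called higher and 29.8% called lower. The listing fixes in large part that these genes were called, though not in which direction. Of the 10 genes, 8 passed in no other comparison and would otherwise be absent from the table. The other 2, msp-55 and msp-36, had also passed in the germline. Over the 10 genes the median log2 fold change was 1.50, against -0.08 over all listed genes, in the authors' deposited table.

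The largest change was that of msp-55 (WBGene00003448, chromosome IV, 5055631 to 5056014, minus strand). In the authors' deposited table msp-55 had 4.47 FPKM in soma-depleted worms, against 0.872 FPKM in soma controls. Its log2 fold change in the authors' deposited table was 2.35 (DESeq2 adjusted p = 4.4e-05). It had the lowest level of the 10 genes in both control groups and the lowest mean count, 29.2. Its neighbour msp-57 lies 6.56 kb away (WBGene00003450, 5062578 to 5062961, plus strand) and had the highest level in soma-depleted worms. The authors' deposited table lists msp-57 at 8.99 FPKM in soma-depleted worms, against 3.73 FPKM in soma controls (log2 fold change 1.27, DESeq2 adjusted p = 0.00585). In soma controls these neighbours stood at opposite ends of the family in level, and the soma fold change of msp-57 was the smallest but for msp-31.

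In the chromosome II cluster, msp-50 (WBGene00003443, 5199797 to 5200180, plus strand) had the second largest change. The authors' deposited table lists msp-50 at 4.12 FPKM in soma-depleted worms, against 1.202 FPKM in soma controls (log2 fold change 1.78, DESeq2 adjusted p = 0.0046). The gene msp-40 (WBGene00003435, 4825414 to 4825797, plus strand) had a higher level and a smaller change. In the authors' deposited table msp-40 stood at 8.58 FPKM in soma-depleted worms, against 3.18 FPKM in soma controls (log2 fold change 1.43, DESeq2 adjusted p = 0.0044).

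Farther along chromosome IV, msp-76 (WBGene00003463, 9689015 to 9689398) had 6.25 FPKM in soma-depleted worms, against 1.95 FPKM in soma controls, in the authors' deposited table (log2 fold change 1.69, DESeq2 adjusted p = 0.0193). For msp-36 (WBGene00003432, 10095433 to 10095816) the authors' deposited table has 5.59 FPKM in soma-depleted worms, against 1.85 FPKM in soma controls (log2 fold change 1.60, DESeq2 adjusted p = 0.0186). Both lie on the plus strand. The gene msp-77 (WBGene00003464, 9894631 to 9895014, plus strand) was closest to the threshold. It had 3.47 FPKM in soma-depleted worms, against 1.35 FPKM in soma controls, in the authors' deposited table (log2 fold change 1.36, DESeq2 adjusted p = 0.0452). Its level in soma-depleted worms was the lowest of the 10 genes.

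The remaining chromosome IV gene, msp-19 (WBGene00003426, 5260589 to 5260972, plus strand), lay near the middle of the family. In the authors' deposited table msp-19 had 7.20 FPKM in soma-depleted worms, against 2.42 FPKM in soma controls (log2 fold change 1.57, DESeq2 adjusted p = 0.0128). The adjusted p-values of the family were modest. Over the 10 genes the median DESeq2 adjusted p was 0.0106, against 0.00314 among 45 other genes called higher in the authors' deposited table within the same ranges of mean count and log2 fold change. At an adjusted p under 0.01, 5 of the 10 genes still passed, while 25.2% of all 882 listed genes were called higher at that threshold. All 10 had a log2 fold change of at least 1. An absolute change of that size in either direction is taken here as part of the threshold for listing. On that reading the listing fixes the size for the 8 genes listed through the soma alone, though not for msp-55 and msp-36. Of all 882 listed genes, 242 (27.4%) were called higher in the soma with a change of that size, among 262 called higher at any size.

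The germline comparison asked the same of SACY-1 removal from germ cells. Of the 10 genes, 2 were called higher and none lower, against 41.8% of listed genes called higher and 21.1% called lower. The listing shapes this contrast too. The table includes genes listed for a germline call, while 8 of the 10 msp genes are listed through the soma comparison alone. The median log2 fold change was 0.74, against 0.33 over all listed genes, in the authors' deposited table. The gene msp-36 had 4.50 FPKM in germline-depleted worms, against 1.87 FPKM in germline controls (log2 fold change 1.27, DESeq2 adjusted p = 0.0268), in the authors' deposited table. For msp-55 the authors' deposited table has 2.34 FPKM in germline-depleted worms, against 1.01 FPKM in germline controls (log2 fold change 1.22, DESeq2 adjusted p = 0.0201). These 2 genes were among the 69 listed genes (7.82%) called higher in both comparisons. Both had a germline log2 fold change of at least 1. Of all 882 listed genes, 311 (35.3%) were called higher in the germline with a change of that size, among 369 called higher at any size. Neither msp-36 nor msp-55 passed at an adjusted p under 0.01, while 36.7% of all 882 listed genes were called higher at that threshold.

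The other 8 genes did not pass in the germline, with DESeq2 adjusted p-values from 0.101 to 0.934 in the authors' deposited table. Their log2 fold changes were positive, from 0.05 to 1.04. The gene nearest to the threshold was msp-76, with 4.13 FPKM in germline-depleted worms, against 2.00 FPKM in germline controls, in the authors' deposited table (log2 fold change 1.04, DESeq2 adjusted p = 0.101). In germline-depleted worms msp-77 had 3.41 FPKM, against 2.07 FPKM in germline controls, in the authors' deposited table (log2 fold change 0.73). Its level in soma-depleted worms, 3.47 FPKM, was almost the same as in germline-depleted worms.

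For msp-57 the authors' deposited table has 5.32 FPKM in germline-depleted worms, against 3.34 FPKM in germline controls (log2 fold change 0.67). In that deposited table of the authors msp-19 had 4.42 FPKM in germline-depleted worms, against 2.62 FPKM in germline controls (log2 fold change 0.76). There msp-50 had 2.78 FPKM in germline-depleted worms, against 1.66 FPKM in germline controls (log2 fold change 0.75). In the same deposited table msp-40 had 3.81 FPKM in germline-depleted worms, against 2.48 FPKM in germline controls (log2 fold change 0.62). These 4 genes thus lay within a narrow span of germline change, which msp-33 and msp-77 shared. A p that misses the threshold does not show that levels in depleted and control worms were alike.

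**Figure D2:**
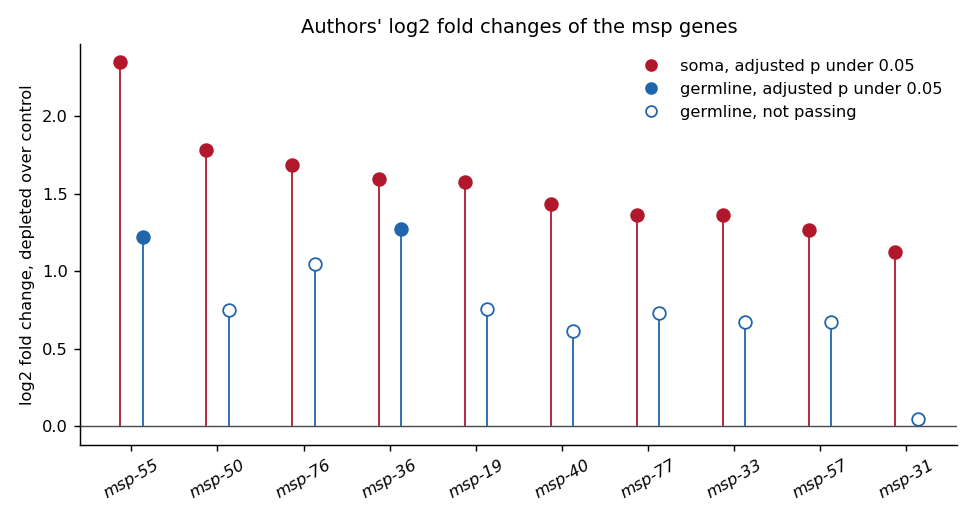
Authors' log2 fold change of depleted over control (vertical axis) for each msp gene in the soma and germline comparisons, ordered by the soma value; filled points passed an adjusted p of 0.05. All 10 soma points are filled and lie between 1.12 and 2.35, while in the germline only msp-55 and msp-36 are filled and msp-31 lies at 0.05.

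The soma log2 fold change was larger than the germline one in all 10 genes, by 0.32 for msp-36 to 1.12 for msp-55, in the authors' deposited table. Over all listed genes the soma value was the larger in 38.8%. For the 8 genes that were listed through the soma comparison alone, the listing favours this direction. The difference between the comparisons was not tested, since the table holds no standard error. Set against each other, the depleted groups had a ratio of summed msp levels of 1.60 (soma-depleted over germline-depleted) and the controls a ratio of 0.925 (soma control over germline control). The germline control mean was above the soma control mean in 7 of the 10 genes, against 413 of all 882 listed genes. The 3 exceptions were msp-33, msp-40 and msp-57. Among the 7, msp-36 had 1.87 FPKM in germline controls, against 1.85 FPKM in soma controls, and msp-76 had 2.00 FPKM, against 1.95 FPKM. Whether the controls differ was not tested.

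The chromosome IV genes had the higher median fold change in the germline. The 6 genes on chromosome IV had germline log2 fold changes from 0.67 to 1.27 with a median of 0.90 in the authors' deposited table, and the 4 on chromosome II had 0.05 to 0.75 with a median of 0.65. In the soma comparison the medians were 1.59 on chromosome IV and 1.40 on chromosome II, and the ranges overlapped widely. Members on 1 chromosome can share reads and are no replicates, so this split is a description.

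Of the 10 genes, 2 lie inside introns of other protein-coding genes, and both are on chromosome II. The gene msp-31 (WBGene00003429, 4916179 to 4916562, minus strand) lies in an intron of aagr-2, on the same strand. It was the only gene with nearly equal germline means, 5.59 FPKM in germline-depleted worms, against 5.42 FPKM in germline controls (log2 fold change 0.05, DESeq2 adjusted p = 0.934), in the authors' deposited table. Its germline control mean was the highest of the 10 genes, while the other 9 lay between 1.01 and 3.34 FPKM. In the soma msp-31 had 6.61 FPKM in soma-depleted worms, against 3.04 FPKM in soma controls, in the authors' deposited table, the smallest log2 fold change of the family at 1.12 (DESeq2 adjusted p = 0.0199). The ratio of its mean count to its mean FPKM over the 11 samples was 10.7 counts per FPKM, against 12.3 to 12.9 for the other 9 genes, so its FPKM may not be on the same scale as theirs. The surrounding gene aagr-2 was not among the listed genes, and the part of its reads in the msp-31 values was not tested.

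The gene msp-33 (WBGene00003431, 4892311 to 4892694, minus strand) lies in an intron of gst-9, a glutathione S-transferase gene on the opposite strand. In the authors' deposited table msp-33 had 8.38 FPKM in soma-depleted worms, against 3.27 FPKM in soma controls (log2 fold change 1.36, DESeq2 adjusted p = 0.00837). The surrounding gene went the other way, with gst-9 at 12.015 FPKM in soma-depleted worms, against 24.99 FPKM in soma controls, in the authors' deposited table (log2 fold change -1.06, DESeq2 adjusted p = 4.4e-08). In the germline msp-33 had 3.58 FPKM in germline-depleted worms, against 2.25 FPKM in germline controls (log2 fold change 0.67), in the authors' deposited table. The sources used here do not say whether counting used strand. Without msp-31 and msp-33, the median soma log2 fold change was 1.59 and the germline one 0.75.

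The family sits in 3 clusters, taken as runs of annotated msp genes with gaps under 1 Mb. The chromosome II cluster (4785898 to 5810330) holds 13 annotated msp genes, 4 of them listed. The left chromosome IV cluster (5055631 to 5316906) and the right one (9689015 to 10143740) hold 9 annotated msp genes each, with 3 listed in each. In the chromosome II cluster no msp gene beyond msp-50 was listed, and in the left chromosome IV cluster none beyond msp-19. Of 28 other listed genes inside the clusters, 18 were called higher and 4 lower in the soma comparison (64.3% higher, against 29.7% of all listed genes). In the germline comparison 9 were higher and 1 lower (32.1% higher, against 41.8%). No neighbour with a soma call had a germline call with a log2 fold change of at least 1. Each of them is thus in the table through the soma comparison. The listing fixes that they were called in the soma, though not in which direction, and nothing is read from these shares. Within 20 kb of an annotated msp gene, a distance chosen after the values were seen, lay 12 other listed genes. In the soma 10 of the 12 were higher (83.3%, against 29.7%) and 2 lower (gst-9 and gst-2). In the germline 1 was higher (8.33%, against 41.8%). All 12 are in the table through the soma comparison alone, so the listing shapes both counts. The positions were not tested, and several of these genes belong to sperm families described below.

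Among these neighbours was sss-1, named for sperm-specific expression, at 0.881 kb from msp-77. It had 4.86 FPKM in soma-depleted worms, against 1.10 FPKM in soma controls, in the authors' deposited table (log2 fold change 2.15, DESeq2 adjusted p = 3.5e-06). The pseudogenes T13F2.9, 0.902 kb from msp-79, and ZK546.3, 6.49 kb from msp-152, were higher as well in the authors' deposited table (soma log2 fold changes 1.68 and 1.29, DESeq2 adjusted p = 6.4e-05 and 0.00102). ZK546.3 spans 4939899 to 4940282 on chromosome II. The collagen gene col-17, in the gap between msp-40 and msp-33, was the lowest of the neighbours, at a soma log2 fold change of -3.53 in the authors' deposited table (DESeq2 adjusted p = 1.8e-19). Neighbours named here were chosen after their values were seen.

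**Figure D3:**
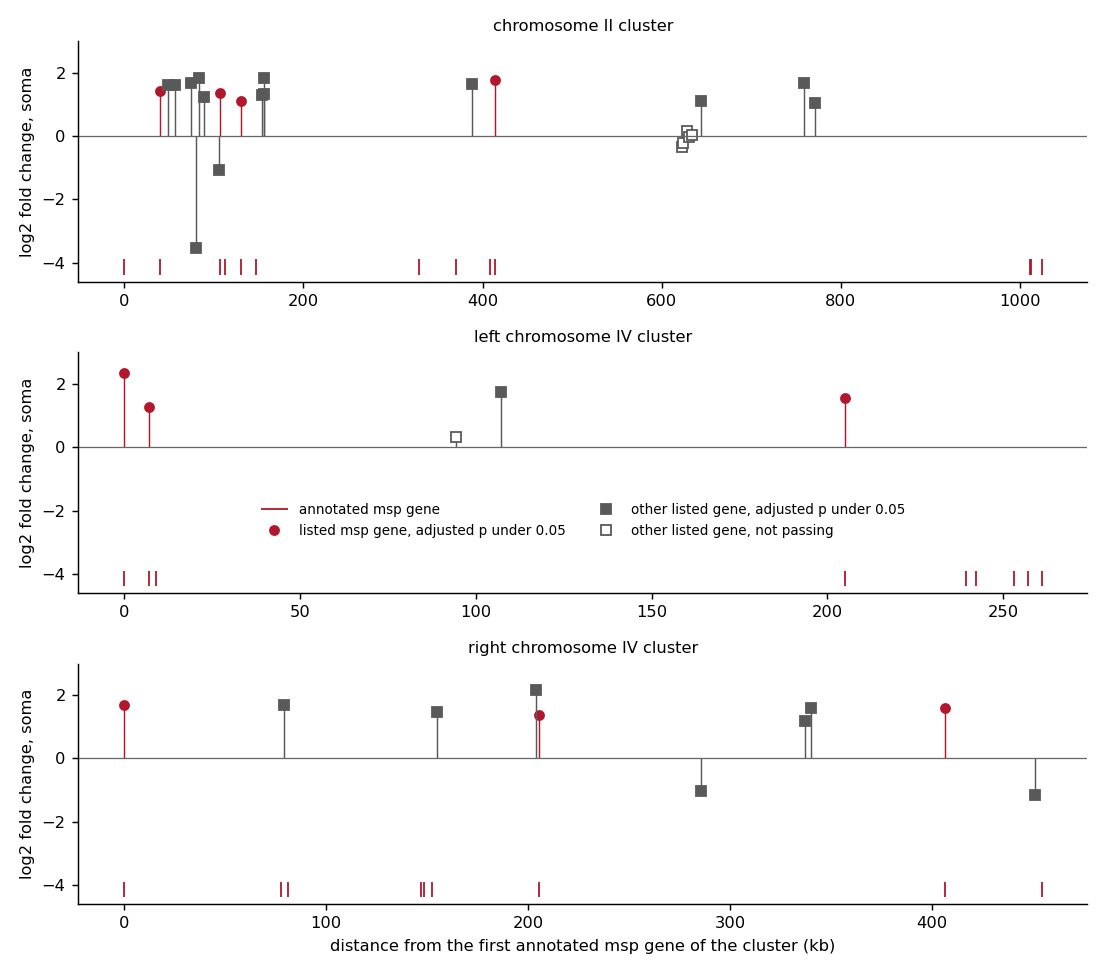
Authors' soma log2 fold change (vertical axis) of listed genes in the 3 msp clusters against distance in kb from the first annotated msp gene of each cluster; circles are msp genes, squares are other listed genes, filled where the adjusted p was under 0.05, and ticks mark all 31 annotated msp genes. Most squares beside msp genes lie above 0, with col-17 at -3.53 and gst-9 at -1.06 among the exceptions in the top panel.

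Other genes were set beside the msp genes by lists of names and roles. A list called here small sperm families held 67 annotated genes with names beginning msd, ssp, sss, nspa, nspb, nspc or nspd. Some of the 67 encode proteins with a domain like that of major sperm protein. The list was drawn by name, and whether the nspa, nspb and nspc genes are sperm genes was not tested. Of the 67 genes, 10 were listed, 9 of them higher in the soma and none lower, against 29.7% and 29.8% of all listed genes. In the germline 2 were higher and 1 lower, against 41.8% and 21.1% of all listed genes. None of the 9 had a germline call with a log2 fold change of at least 1, so each is in the table through the soma comparison. The listing thus fixes that they were called in the soma, though not in which direction, and nothing is read from this count. Their median log2 fold changes were 1.59 in the soma and 0.58 in the germline in the authors' deposited table, against 1.50 and 0.74 for the msp genes. The sperm gene msd-4 had 13.2 FPKM in soma-depleted worms, against 4.95 FPKM in soma controls, in the authors' deposited table (log2 fold change 1.41, DESeq2 adjusted p = 0.00183). It was also called in the germline comparison of the authors' deposited table (log2 fold change 0.88, DESeq2 adjusted p = 0.0288).

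Among the nspd genes, a nematode-specific family of small peptides, nspd-1, nspd-2 and nspd-3 were higher in the soma comparison of the authors' deposited table (log2 fold changes 1.51, 1.45 and 1.76, DESeq2 adjusted p = 8.6e-05, 0.00113 and 0.000843). In soma-depleted worms nspd-2 reached 23.5 FPKM, against 8.58 FPKM in soma controls, in the authors' deposited table. Its germline log2 fold change was 0.81 (DESeq2 adjusted p = 0.0454) in the authors' deposited table. The exception in this list was nspb-1, which was lower in the germline, with 3.01 FPKM in germline-depleted worms, against 7.55 FPKM in germline controls, in the authors' deposited table (log2 fold change -1.33, DESeq2 adjusted p = 0.000234).

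Of the list of sperm function, which covered activation, motility, chromatin and fertilization, 1 of 33 annotated genes was listed. This was spe-11, a paternal factor that the sperm supplies to the embryo, with 2.76 FPKM in soma-depleted worms, against 0.674 FPKM in soma controls, in the authors' deposited table (log2 fold change 2.04, DESeq2 adjusted p = 3.4e-05). It was called in the germline as well, with 1.696 FPKM in germline-depleted worms, against 0.72 FPKM in germline controls, in the authors' deposited table (log2 fold change 1.24, DESeq2 adjusted p = 0.00554). None of 8 annotated genes of the packaging of major sperm protein into fibrous bodies was listed, nor any of 26 genes of the oocyte and sheath response to its signal. None of 23 oocyte and embryo genes and none of 10 male and seminal genes was listed. As the table holds no gene without a call, absence from it gives no level.

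The only listed gene of 30 annotated regulators of germ cell sex and spermatogenesis was her-1, which promotes male development. It had 16.995 FPKM in germline-depleted worms, against 4.10 FPKM in germline controls, in the authors' deposited table (log2 fold change 2.05, DESeq2 adjusted p = 1.3e-13). In the soma comparison it had 8.79 FPKM in soma-depleted worms, against 9.23 FPKM in soma controls, in the authors' deposited table (log2 fold change -0.07, DESeq2 adjusted p = 0.887). Its germline control mean was the lowest of its 4 groups and its germline-depleted mean the highest. Of 6 yolk protein genes, vit-3 was listed and was higher in both comparisons of the authors' deposited table (log2 fold changes 1.38 in the soma and 0.58 in the germline, DESeq2 adjusted p = 4.4e-09 and 0.00834).

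**Figure D4:**
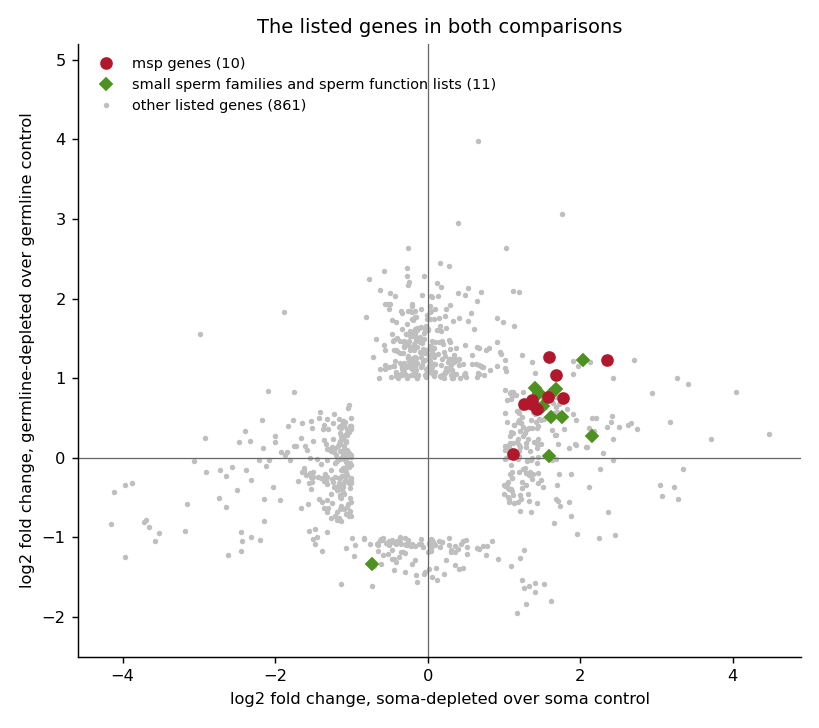
Authors' log2 fold change in the soma comparison (horizontal axis) against that in the germline comparison (vertical axis) for the 882 listed genes; circles are the 10 msp genes, diamonds the 11 listed genes of the small sperm family and sperm function lists, and dots the other 861. The msp genes lie together at the right, between 1.12 and 2.35 in the soma, and the empty centre comes from the threshold for listing.

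The likeness of other genes to the msp pattern was measured as the Euclidean distance between log2(FPKM + 0.1) values of the 4 groups, each centred on its own mean, and the mean centred profile of the 10 msp genes. The distance of the members themselves had a median of 0.43 and reached 0.79 for msp-31, while msp-19 was the closest at 0.04. Other listed genes had a median distance of 1.59. The members set the mean profile themselves, and most were listed through the soma comparison alone, so their smaller distances are partly built in. The nearest 5 were C10C5.3 at 0.08, nspd-2 at 0.09, C04F12.7 at 0.11, C27D6.3 at 0.11 and the collagen gene col-106 at 0.12. All 5 lay closer to the mean profile than any msp gene but msp-19, as the next member, msp-76, lay at 0.21. Of these 5 genes, C27D6.3 lies in the chromosome II cluster, 16.6 kb from msp-45, and nspd-2 in the right chromosome IV cluster, 2.14 kb from msp-56. In the authors' deposited table col-106 had 1827 FPKM in soma-depleted worms, against 695 FPKM in soma controls, so a profile over 4 group means can be shared by genes of very different level. The distance rests on 4 points per gene, from samples shared by all genes.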

How the data were processed

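Poly(A)+ RNA of 11 samples in 4 groups was sequenced, per the labels; the soma control samples labelled here are replicates 1 and 3. Only group means were used, and it cannot be told whether the soma control mean also includes a replicate 2. The submitters' processing notes name DESeq2 1.26.0, STAR 2.7.2a, Trim Galore 0.6.0, SAMtools 1.7 and cutadapt 1.18 and the build WBcel235/ce11. Gene identifiers follow Ensembl 97, per the file headers. The authors deposited group mean FPKM values, log2 fold changes and p-values adjusted by Benjamini-Hochberg, per the file headers. They also gave a mean count over all samples, for which the sources used here state no normalization. The authors deposited a second table with splicing q-values and inclusion differences, used here only for overlap with msp genes. The header words the germline log2 fold change as set against the soma control. It is read here as germline-depleted over germline control, because all 882 values lay within 0.1 of that log2 FPKM ratio (880 of 882 in the soma).

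No model was fitted: the tables hold no value per sample, so depth and replicate spread are unknown and calls are the authors' at an adjusted p of 0.05. Nothing in the labels besides the words biological replicates describes how replicates differ. Positions came from Ensembl release 115 of the same assembly, which held 881 of 882 identifiers. RefSeq for this assembly also has 31 protein-coding msp genes, and 4 pseudogenes. Members and lists were chosen with earlier results of these data known. All listed msp genes are named, up to 6 called members per other list by the smallest adjusted p, and the 5 nearest profiles; names outside this rule are said to be so, and gst-9 and aagr-2 are named as genes around msp genes. Counting and profile steps were checked on a copy of the deposited values with calls and profiles planted. The planted profiles copied the mean msp profile, so their recovery tested the code only. Python 3.11.15, numpy 2.4.6, pandas 2.3.3 and matplotlib 3.10.9 were used.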

Additional observations from a re-analysis of the deposited data

How the results depend on the processing

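At an adjusted p under 0.01 the number of msp genes called higher was 5 in the soma and 0 in the germline; no unadjusted p-values are used here. The counts of 10 and 2 did not change when a log2 fold change of 1 or more was required. The listing fixes this for the 8 genes listed through the soma comparison alone. All 10 genes are protein-coding, so that restriction tested nothing. The counts were 8 and 2 without msp-31 and msp-33, an alternative chosen after seeing the data. All 10 genes had positive log2 fold changes in both comparisons, so the sign of the median could not turn under these alternatives. The median moved most with a pseudocount of 1 FPKM, to 1.20 in the soma and 0.53 in the germline. A pseudocount of 0.1 gave 1.47 and 0.70, and the ratio of summed FPKM gave 1.48 and 0.69. The highest member was msp-57 in soma-depleted worms and soma controls, and msp-31 in germline-depleted worms and germline controls. Without the highest member of each group, summed FPKM was 54.7 in soma-depleted worms and 19.1 in soma controls. It was 34.3 in germline-depleted worms and 19.3 in germline controls. The soma and germline sums thus leave out different genes. No msp gene had a mean count of at least 100, so that minimum gave no value. Counting identical proteins once was not run, as sequences were not used here. No paired analysis was possible because the tables hold group means without values per replicate, and leaving out single replicates could not be run for the same reason.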
